A study of Homo sapiens with 6 samples.

Results

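The genes described here report on and restrain ERK signalling, and their mRNA was followed in U87 cells after exposure to rutaecarpine. They are the Sprouty genes SPRY1, SPRY2 and SPRY4, the Sprouty-related genes SPRED1 and SPRED2, the MAP kinase phosphatase genes DUSP4, DUSP5 and DUSP6, and the ETS transcription factor genes ETV4 and ETV5. They were chosen by name, with earlier results of these data known, and they are 10 of the 60671 genes in the expression table. The table carries the symbol of 9 of them, and ETV5 was found by its Ensembl identifier. U87 is an established human glioblastoma cell line, so all values come from 1 line. The control group (n = 3) was exposed to 0.1% DMSO for 48 h. The rutaecarpine group (n = 3) was exposed for 48 h to 100 μM rutaecarpine, an alkaloid and agonist of the aryl hydrocarbon receptor (AhR), which was diluted in serum-free medium from a DMSO stock and so carried the same 0.1% DMSO. The study asked which migration-related genes respond to rutaecarpine in these cells.

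ERK is the last kinase of the cascade that runs from growth factor receptors through RAS, RAF and MEK. Active ERK switches on genes whose products damp the cascade again, so their mRNA levels are widely read as a record of recent ERK activity. Sprouty and SPRED proteins act upstream, at the level of receptors, RAS and RAF, whereas the phosphatases remove the activating phosphates from ERK itself. ETV4 and ETV5 belong to the PEA3 group of ETS factors, and the repressor capicua holds several of these genes down until ERK relieves it. In glioblastoma the pathway is commonly active through growth factor receptors.

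Expression was given as TPM, a transcript abundance that is corrected for length and scaled to about the same total in each library, so that it can be compared between genes. TPM keep no read numbers, so the depth behind each value is unknown. The groups were compared on the log2(TPM + 1) scale with limma over the 14377 genes that reached 1 TPM in 3 or more libraries, and all 10 genes were among them. A gene is said to have risen or fallen where its adjusted p (limma, Benjamini-Hochberg over all tested genes) was at most 0.05, and it is called a DEG where the log2 fold change was also beyond 1 in either direction. The labels do not say whether the libraries came from separate cultures, and the p values then measure only the spread between libraries. A change in TPM does not tell more mRNA per cell from more cells that express the gene.

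Control replicate 3 stood apart from the other libraries. Its tested genes had a median log2(TPM + 1) of 3.56, against 3.81 to 4.00 in the other 5 libraries. It held the lowest control value for 62.3% of the tested genes and for 9 of the 10 genes described here, ETV4 being the exception, so values without this library are given beside the results. Over all tested genes, the median log2 fold change came to 0.08 with it and to -0.01 without it. Mitochondrially encoded genes took 7.96% to 9.33% of the TPM in all 6 libraries. VIM, CD44 and FN1, which mark mesenchymal glioblastoma cells, were at 415 TPM or more throughout, and NES, a neural progenitor marker, at 12.3 TPM or more. The glial markers GFAP (3.48 to 5.41 TPM) and OLIG2 (1.48 to 4.11 TPM) were low and SOX2 reached 0.06 TPM at most, so the glial side of the label rested on little signal. Markers of leukocytes (PTPRC), epithelium (EPCAM), liver (ALB) and endothelium (PECAM1) did not exceed 0.03, 0.80, 0.22 and 1.33 TPM. Of the 6 line markers that could be tested, VIM, FN1 and NES fell by 0.63, 0.89 and 0.53 on the log2 scale and OLIG2 rose by 0.83, and their part in the results was not tested. CYP1B1, an AhR target, rose with a log2 fold change of 2.52 (SE 0.26, limma adjusted p = 0.0019), where SE is the standard error.

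DUSP6 and SPRY2 were the 2 DEGs among the 10 genes, both up-regulated. Among all tested genes, 2.01% were up-regulated DEGs and 1.5% were down-regulated DEGs, and 0 of the 10 genes were of the latter kind. On the adjusted p alone, DUSP4 and ETV5 also rose, which makes 4 of the 10 genes against 4.6% of all tested genes, and 0 fell against 4.68%. At an unadjusted p under 0.05, limma gave 6 of the 10 genes with a higher level, against 13.4% of all tested genes, and 0 with a lower level, against 11.0%. All 3 rutaecarpine libraries lay above all 3 control libraries for 8 of the 10 genes, where 19.3% of the tested genes did so, and for 0 genes did they lie below, where 14.0% did. Because the genes were chosen with earlier results of these data known, the counts beside these shares are descriptions and test no excess. The 10 genes had a median log2 fold change of 0.51. Without control replicate 3 it was 0.39, with the same 2 genes as DEGs (1.95% of all tested genes were then up-regulated DEGs) and with 5 genes at an adjusted p of at most 0.05 (8.20% of all tested genes were then at this level and higher after rutaecarpine).

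**Figure D1:**
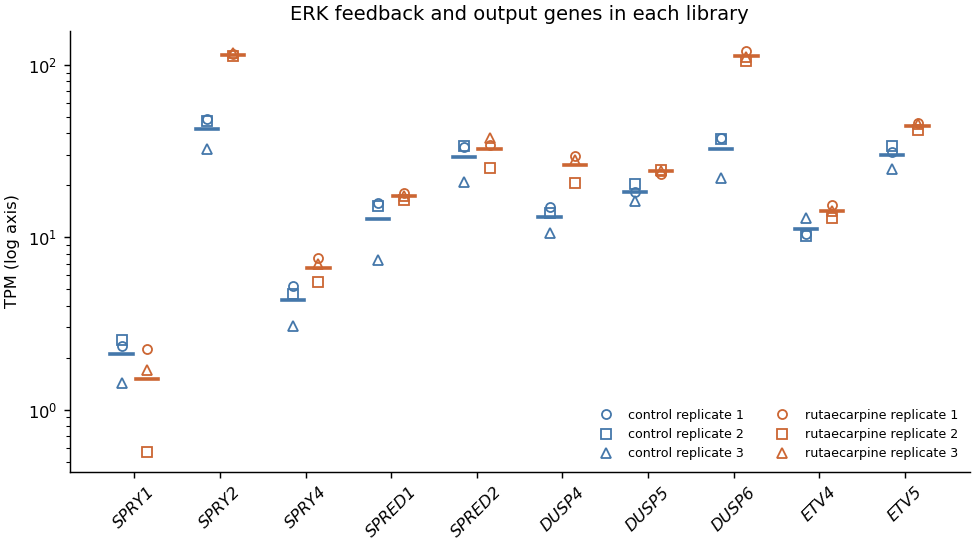
TPM (log axis) of the 10 genes in each of the 6 libraries, with symbols for the replicate number and a bar for the group mean (blue, control; orange, rutaecarpine). The groups are far apart for SPRY2 and DUSP6, they overlap for SPRY1 and SPRED2, and the blue triangle, control replicate 3, is the lowest control for every gene except ETV4.

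Sprouty proteins bind adaptors and RAF and block the signal from receptor tyrosine kinases. SPRY2 (ENSG00000136158; GRCh38, chromosome 13, 80335976 to 80340951, minus strand) stood at 48.59, 46.85 and 32.39 TPM in control replicates 1 to 3 and at 115.0, 112.5 and 116.1 TPM in rutaecarpine replicates 1 to 3. The treated libraries were nearly level, control replicate 3 was the lowest, and a wide gap separated the groups. The ratio of the group means was 2.69, or 2.40 without control replicate 3. SPRY2 rose by a log2 fold change of 1.43 (SE 0.16, limma adjusted p = 0.0025), and only 1.02% of the tested genes had a larger one. SPRY2 is also one of the genes that the study picked from these same samples, so its rise here is not independent evidence. The paper also measured SPRY2 by qPCR after rutaecarpine and reports a change in the same direction.

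SPRY4 (ENSG00000187678; chromosome 5, 142310427 to 142326455, minus strand), which also acts on RAS and RAF, had a TPM of 5.24, 4.66 and 3.04 in the controls and of 7.54, 5.46 and 6.99 after rutaecarpine. The groups did not overlap, but the lowest treated library was only slightly above the highest control. Its log2 fold change of 0.54 (SE 0.22) did not pass the test (limma adjusted p = 0.191), and the value was 0.36 without control replicate 3. An antisense RNA gene, SPRY4-AS1, overlaps SPRY4 and was itself at 0.73 to 2.08 TPM. The sources used here do not state whether the libraries keep the strand, so reads from the overlap cannot be assigned with certainty.
SPRY1 (ENSG00000164056; chromosome 4, 123396795 to 123403760, plus strand) was the weakest of the 10 genes, with a TPM of 2.35, 2.53 and 1.43 in the controls and of 2.24, 0.57 and 1.69 after rutaecarpine. It was the only one whose mean was lower after treatment, and the groups overlapped. The log2 fold change of -0.36 had a 95% confidence interval from -1.08 to 0.37, and it was -0.52 without control replicate 3 and -0.05 without rutaecarpine replicate 2.

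The balance among these 3 Sprouty genes shifted towards SPRY2. The summed TPM of SPRY1, SPRY2 and SPRY4 was 49.0 ± 10.6 in the controls and 122.7 ± 3.61 after rutaecarpine (mean ± SD, n = 3 each). SPRY2 made up 87.02% ± 0.75 (SD, n = 3) of this sum in the controls and 93.4% ± 1.40 (SD, n = 3) after rutaecarpine. SPRY4 took 8.73% ± 0.55 and 5.42% ± 0.74, and SPRY1 took 4.25% ± 0.41 and 1.21% ± 0.67. The share of SPRY2 in control replicate 3, at 87.9%, was close to the 86.5% and 86.7% of the other controls, although its level there was the lowest.

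The promoters of SPRY2 and DUSP6 are shown because these 2 genes had the largest log2 fold changes of the 10. RefSeq promoters (GRCh38.p14) were held for 6 of the 10 genes, in 10 windows of the 250 bases before a transcription start. The DUSP6 window lies inside the gene span given below for DUSP6, whereas the SPRY2 window shown lies upstream of the span given for SPRY2. The window at the farthest upstream start of SPRY2, chr13:80341127-80341376 on the minus strand, and a stretch of 30 bases inside the DUSP6 window, chr12:89352634-89352663 on the minus strand, read as follows, with the ETS core GGAA or its reverse complement TTCC in capitals.
SPRY2: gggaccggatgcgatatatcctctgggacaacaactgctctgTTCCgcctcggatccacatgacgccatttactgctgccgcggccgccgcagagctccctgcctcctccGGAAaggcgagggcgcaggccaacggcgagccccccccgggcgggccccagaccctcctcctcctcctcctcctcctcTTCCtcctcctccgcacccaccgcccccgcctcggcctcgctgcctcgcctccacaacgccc
DUSP6: tccggagcGGAAaTTCCtTTCCgtttttgt

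The SPRY2 window held 3 matches of the ETS core, which is the median of all 35116 windows, and the other SPRY2 windows held 4 each. The whole DUSP6 window held 6 matches, of which the stretch above, chosen after its letters were seen, holds 3 close together. At least 1 match was found in 92.7% of all windows and at least 6 in 9.14%. Longer motifs were rarer. The ETS motif CCGGAAG, read on both strands, was found in a window of SPRY1 alone among the 6 genes, and in 8.52% of all windows. It contains the core, so these matches overlap. The dioxin response element TNGCGTG, the AP-1 motif TGANTCA and the capicua motif TGAATGAA or TCAATGAA, also on both strands, were in none of the windows of the 6 genes and in 4.52%, 6.57% and 2.00% of all windows. These are matches of letters within 250 bases and describe neither binding nor its absence. The paper lists putative dioxin response elements for SPRY2 in a longer stretch, upstream of the coding sequence. Its count and the one here therefore cover different sequence.

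SPRED proteins bring neurofibromin to the membrane, where it turns RAS off. SPRED1 (ENSG00000166068; chromosome 15, 38252326 to 38357249, plus strand) had a TPM of 15.77, 15.08 and 7.37 in the controls and of 17.98, 16.52 and 17.34 after rutaecarpine. The treated libraries were all above the controls, yet most of the distance came from control replicate 3, whose value was far below the others. The log2 fold change of 0.48 (SE 0.27, limma adjusted p = 0.334) became 0.15 without that library and 0.25 once the trend of each library on transcript length and GC content was removed. At 7780 bases and 38.9% GC, the longest SPRED1 transcript in GENCODE release 29 was both the longest and the lowest in GC among those of the 10 genes.
SPRED2 (ENSG00000198369; chromosome 2, 65310851 to 65432637, minus strand) was the more abundant of the pair, with a TPM of 33.29, 33.61 and 20.92 in the controls and of 34.27, 25.07 and 37.70 after rutaecarpine. The groups overlapped, with rutaecarpine replicate 2 below both of the higher controls. The log2 fold change was 0.15 with a 95% confidence interval from -0.39 to 0.69, and it turned to -0.07 (-0.45 to 0.32) without control replicate 3. The summed TPM of SPRED1 and SPRED2 was 42.0 ± 11.9 in the controls and 49.6 ± 7.10 after rutaecarpine (mean ± SD, n = 3 each).

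The dual-specificity phosphatases differ in where they act. DUSP6 works on ERK in the cytoplasm, whereas DUSP4 and DUSP5 are nuclear. DUSP6 (ENSG00000139318; chromosome 12, 89347232 to 89353271, minus strand) had the largest change of the 10 genes. Its TPM was 37.80, 37.05 and 22.09 in the controls and 119.6, 104.7 and 111.5 after rutaecarpine, so that the groups were separated by a wide gap. The ratio of the means was 3.46, or 2.99 without control replicate 3. Its rise, a log2 fold change of 1.80 (SE 0.20, limma adjusted p = 0.0029), was exceeded by 82 of the tested genes, which is 0.570% of them. The antisense gene AC024909.2, which overlaps DUSP6, was at no more than 2.13 TPM in any library.

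DUSP4 (ENSG00000120875; chromosome 8, 29333064 to 29350668, minus strand) had a TPM of 14.96, 13.87 and 10.52 in the controls and of 29.65, 20.63 and 27.94 after rutaecarpine. The groups did not overlap, and rutaecarpine replicate 2 was the lowest of the treated libraries. DUSP4 rose by a log2 fold change of 0.94 (SE 0.19, limma adjusted p = 0.026), just under the size asked of a DEG. Without rutaecarpine replicate 2 the value was 1.09 with an adjusted p of 0.036 by limma, which made it a DEG. Its adjusted p was 0.014 without control replicate 3 but 0.053, 0.070, 0.116 and 0.123 in limma fits that left out control replicate 1, control replicate 2, rutaecarpine replicate 1 or rutaecarpine replicate 3.
DUSP5 (ENSG00000138166; chromosome 10, 110497838 to 110511544, plus strand) was at 18.25, 20.22 and 16.23 TPM in the controls and at 23.37, 24.48 and 24.33 TPM after rutaecarpine. Every treated library was above every control, by a small margin. Its log2 fold change was 0.39 (SE 0.12, limma adjusted p = 0.103), and 0.31 without control replicate 3.

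The 3 phosphatases together summed to 63.7 ± 12.8 TPM in the controls and to 162.0 ± 11.5 TPM after rutaecarpine (mean ± SD, n = 3 each). DUSP6 held 50.2% ± 4.33 (SD, n = 3) of the sum in the controls and 69.1% ± 0.92 (SD, n = 3) after rutaecarpine. The share of DUSP5 went from 29.1% ± 3.81 to 14.9% ± 1.40 and that of DUSP4 from 20.7% ± 1.07 to 16.0% ± 1.94, so that DUSP4 had a smaller share although its level was higher.

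**Figure D2:**
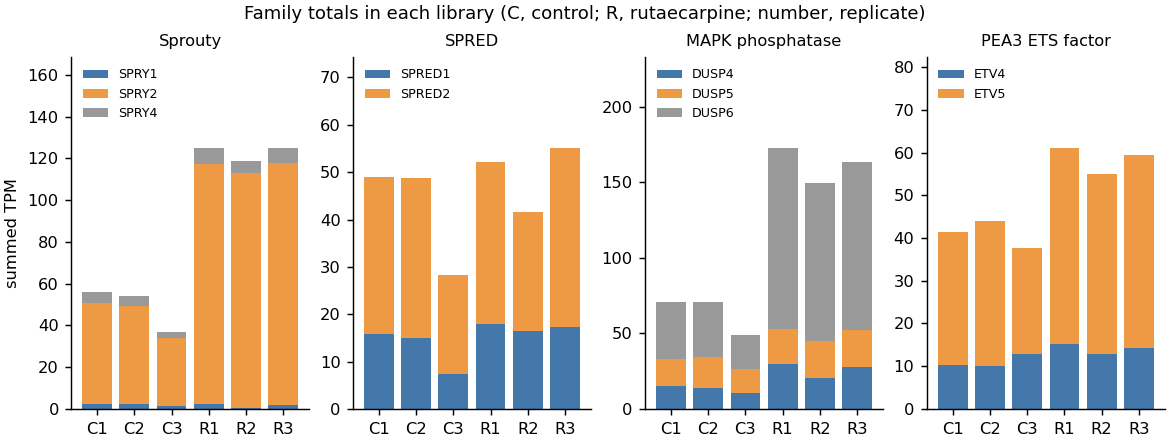
Summed TPM of each family in each library, as stacked bars that start at 0 and are coloured by gene (C, control; R, rutaecarpine; the number is the replicate). The Sprouty and phosphatase totals are higher in all 3 rutaecarpine libraries, with SPRY2 and DUSP6 as their largest parts, while the SPRED totals of the groups overlap.

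ETV4 and ETV5 are both targets and carriers of ERK output, since ERK also activates the proteins. ETV5 (ENSG00000244405; chromosome 3, 186046308 to 186110318, minus strand) had a TPM of 31.12, 33.90 and 24.82 in the controls and of 45.73, 41.99 and 45.22 after rutaecarpine. The groups were apart and the treated libraries close to each other. ETV5 rose by a log2 fold change of 0.56 (SE 0.13, limma adjusted p = 0.045). Without control replicate 3 the value was 0.44 with an adjusted p of 0.014 by limma. The adjusted p from limma was 0.103, 0.058, 0.165, 0.116 and 0.173 when control replicates 1 and 2 and rutaecarpine replicates 1, 2 and 3 were left out in turn. DGKG, which overlaps ETV5 on the same strand, averaged 13.9 TPM in the controls and 18.3 TPM after rutaecarpine.
ETV4 (ENSG00000175832; chromosome 17, 43527844 to 43579620, minus strand) was at 10.37, 10.13 and 12.94 TPM in the controls and at 15.27, 12.97 and 14.16 TPM after rutaecarpine. The lowest treated value and the highest control were almost equal. A log2 fold change of 0.32 was fitted (SE 0.15, limma adjusted p = 0.242). Unlike the other genes, ETV4 had its highest control value in replicate 3, and without that library the log2 fold change was 0.43 with an adjusted p of 0.048 by limma. DHX8, on the opposite strand, overlaps ETV4 and averaged 22.3 TPM in the controls and 24.9 TPM after rutaecarpine.

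**Figure D3:**
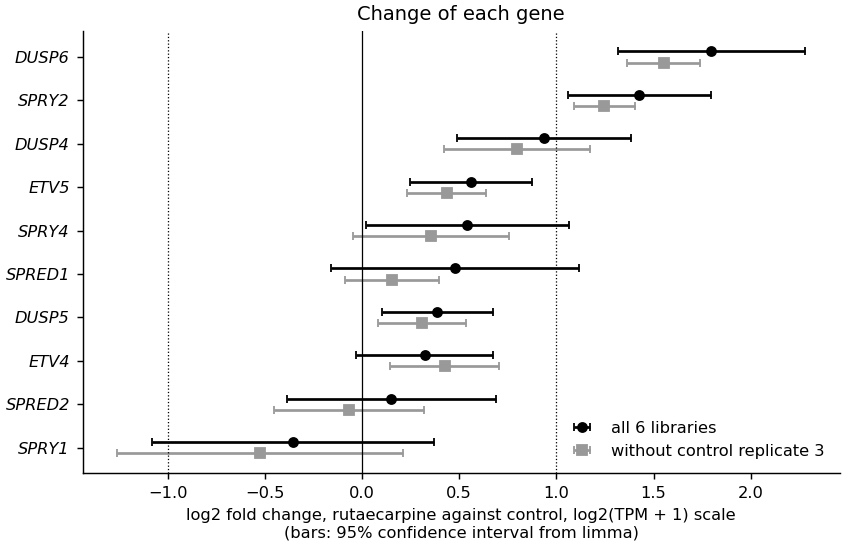
Log2 fold change of each gene on the log2(TPM + 1) scale with its 95% confidence interval from limma, for all 6 libraries (black) and without control replicate 3 (grey). Dotted lines mark 1 and -1. DUSP6 (1.80) and SPRY2 (1.43) lie wholly above 1 in both fits, and the intervals of SPRED1, SPRED2 and SPRY1 include 0 in both.

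In the control group the 10 genes ranked, from the highest mean TPM, as SPRY2, DUSP6, ETV5, SPRED2, DUSP5, DUSP4, SPRED1, ETV4, SPRY4 and SPRY1. Neighbours from SPRY2 to SPRED2 overlapped between libraries, as did those from DUSP4 to ETV4, and the other steps did not overlap. Such overlap compares values of different libraries. Within each control library SPRY2 was above DUSP6, whereas the other overlapping neighbours did not keep the same order in all controls. After rutaecarpine the order was the same except that DUSP4 stood above DUSP5, and those 2 overlapped. SPRED2 (25.07 to 37.70 TPM) then also overlapped with DUSP4 (20.63 to 29.65 TPM), although SPRED2 was the higher within each treated library. SPRY2 and DUSP6 still overlapped, at means of 114.5 and 111.9 TPM, but the next gene, ETV5, was now well below them at 44.3 TPM. In the controls the means of ETV5 and DUSP6 had been close, at 29.95 and 32.3 TPM. DUSP6 was the higher of these in control replicates 1 and 2 (37.80 against 31.12 TPM and 37.05 against 33.90 TPM). It was the lower in control replicate 3 (22.09 against 24.82 TPM).

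Whether related genes responded by different amounts was tested on the difference in log2(TPM + 1) between 2 genes within a library, for the 8 pairs within families. With 3 libraries against 3 the exact permutation test cannot give a two-sided p below 0.1, which becomes 0.133 after adjustment over the 8 pairs. This smallest value was reached by 6 pairs, whose control and treated differences did not overlap. The share among pairs of other tested genes is not given here, and several pairs have a gene in common. This count therefore lacks a background and is a description. For the Sprouty genes, the response of SPRY2 minus that of SPRY4 was 0.88 on the log2 scale, that of SPRY1 minus SPRY2 was -1.78 and that of SPRY1 minus SPRY4 was -0.90. Among the phosphatases, DUSP4 minus DUSP6 gave -0.86, DUSP5 minus DUSP6 gave -1.41, and DUSP4 minus DUSP5 gave 0.55, with single differences between libraries from 0.03 to 0.91 for the last. SPRY2 and DUSP6 thus had the highest response of their families in every comparison of single libraries. For SPRED1 minus SPRED2 the difference was 0.33 (-0.05 to 0.82 between single libraries, exact permutation p = 0.2, adjusted p = 0.229). For ETV4 minus ETV5 it was -0.24 (-0.73 to 0.13, exact permutation p = 0.6), and -0.01 without control replicate 3.

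The summed TPM of ETV4 and ETV5 was 41.1 ± 3.15 in the controls and 58.5 ± 3.13 after rutaecarpine (mean ± SD, n = 3 each). ETV4 held 34.3% of the sum in control replicate 3 and 23.0% to 25.0% in the other 5 libraries, whatever their group.

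The families hold further members that were not among the 10 genes. Of 10 such genes (SPRY3, SPRED3, DUSP1, DUSP2, DUSP7, DUSP8, DUSP9, DUSP10, DUSP16 and ETV1), 8 were expressed enough to be tested, and DUSP2 and DUSP9 stayed at or below 0.07 TPM. DUSP1, a nuclear phosphatase with a preference for p38 and JNK, was the only one that rose over all 6 libraries, with 51.8 ± 4.82 TPM in the controls and 85.5 ± 6.49 TPM after rutaecarpine (mean ± SD, n = 3 each), a log2 fold change of 0.71 (SE 0.11, limma adjusted p = 0.0078). DUSP7, which like DUSP6 acts on ERK in the cytoplasm, was lower in every treated library, at 10.4 ± 1.18 TPM against 14.4 ± 0.53 TPM in the controls, but did not pass the test (log2 fold change -0.44, limma adjusted p = 0.0995). DUSP7 passed as lower without control replicate 3 (log2 fold change -0.47, limma adjusted p = 0.044). The share of all tested genes that passed as lower in that fit is not given here. DUSP16, a phosphatase of JNK and p38, passed as higher without control replicate 3 (0.50, limma adjusted p = 0.030). All 6 libraries gave DUSP16 a value of 0.77 with an adjusted p of 0.105 by limma. The median log2 fold change of the 8 genes was 0.29, and 0.17 without control replicate 3. SPRY3, with a mean of 0.97 TPM in the controls and 1.19 TPM after rutaecarpine, was near the level of SPRY1 and is not in the Sprouty sum above.

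Other genes that ERK is known to induce did not move as 1 group. Of 12 tested, 4 rose and were DEGs, 2 fell and 6 did not pass the test. LIF, a cytokine of the interleukin 6 family, rose from 111 ± 32.9 to 889 ± 134.5 TPM (SD, n = 3) with a log2 fold change of 3.02 (limma adjusted p = 0.00072). IER3, an immediate-early gene and regulator of cell survival, rose from 264.8 ± 19.8 to 1371 ± 38.3 TPM. EGR1, an immediate-early transcription factor, rose from 36.7 ± 2.86 to 129 ± 12.9 TPM, and MAFF, a small MAF factor, from 34.9 ± 2.47 to 78.9 ± 4.19 TPM. Their log2 fold changes were 2.37, 1.79 and 1.16.
The 2 genes that fell were the receptor gene EPHA2, from 9.75 ± 0.44 to 4.09 ± 0.44 TPM, and MYC, from 56.8 ± 1.30 to 35.5 ± 3.18 TPM. Their log2 fold changes were -1.08 and -0.67. CCND1, PHLDA1, EPHA4, FOS, FOSL1 and UPP1 had log2 fold changes from -0.15 to 0.57. Of these, UPP1, a uridine phosphorylase, passed as higher without control replicate 3 (0.52, limma adjusted p = 0.021). The median of the 12 genes was 0.43, against 0.08 for all tested genes, and 0.35 against -0.01 without control replicate 3.

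**Figure D4:**
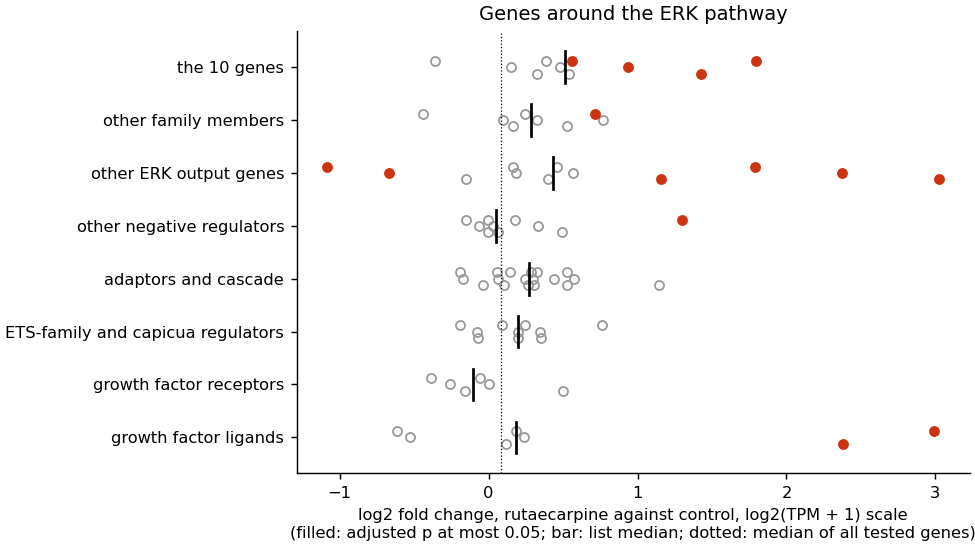
Log2 fold change of each tested gene around the ERK pathway on the log2(TPM + 1) scale, by list (filled points, adjusted p at most 0.05; bars, list medians; dotted line, median of all tested genes at 0.08). The ERK output genes spread from -1.08 to 3.02, whereas 0 of the 18 adaptor and cascade genes have a filled point.

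The kinases and adaptors of the cascade itself were measured as well. Of 18 genes, among them GRB2, SOS1 and the RAS and RAF genes, 0 passed the limma test and 0 had an unadjusted p under 0.05. Their median log2 fold change was 0.27, and 0.05 without control replicate 3. SOS1, a RAS activator, had the highest, at 1.15 (SE 0.62), with a TPM of 25.88, 29.96 and 4.54 in the controls. Without control replicate 3 the value was 0.35.
Of 10 other negative regulators of the pathway, SH2B3, an adaptor that restrains cytokine receptor signalling, rose from 93.6 ± 17.1 to 231 ± 37.7 TPM (SD, n = 3), with a log2 fold change of 1.30 (limma adjusted p = 0.0055). The remaining 9, among them NF1, RASA1, ERRFI1 and CBL, did not pass the test with all 6 libraries, and the median of the list was 0.05. Without control replicate 3 the median was -0.18, and ERRFI1 and LRIG1, both inhibitors of the EGF receptor, passed as lower (log2 fold changes -0.39 and -0.44, limma adjusted p = 0.031 and 0.012). Among 10 ETS-family and capicua regulators, 0 passed the test and 1 had an unadjusted p under 0.05, with a median log2 fold change of 0.20. Without control replicate 3 the median was -0.07, and ELK3, an ETS factor of the ternary complex group, passed as lower (-0.38, limma adjusted p = 0.027). For ERRFI1, LRIG1 and ELK3 too, the share of all tested genes that passed as lower in that fit is not given. CIC, which encodes capicua, had a log2 fold change of -0.07.

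At the head of the pathway, 2 of the 7 tested growth factor ligands rose and 0 of the 6 receptors changed in the test. EREG, a ligand of the EGF receptor, went from 66.1 ± 25.3 to 503 ± 43.9 TPM (SD, n = 3), and FGF2 from 26.5 ± 10.8 to 134 ± 19.8 TPM (SD, n = 3). Their log2 fold changes were 2.99 and 2.38, with adjusted p = 0.0016 and 0.0053 from limma. AREG was not tested, at 0 TPM in the controls and no more than 0.18 TPM after rutaecarpine. EGFR had a log2 fold change of 0.00 (SE 0.36) and FGFR1 of -0.39 (limma adjusted p = 0.230). Without control replicate 3, where EGFR was lowest, EGFR had -0.42 (limma adjusted p = 0.177), and the median of the receptors was -0.39 in place of -0.11. Also without it, 2 of the receptors and 2 of the ligands had an adjusted p of at most 0.05 with a lower level after rutaecarpine, namely FGFR1, AXL, TGFA and FGF1. The share of all tested genes that passed as lower in that fit is not given here. Genes of any list that passed as lower without control replicate 3 therefore lack a background.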

How the data were processed

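RNA-Seq libraries of U87 cells from the rutaecarpine group (n = 3) and the DMSO control group (n = 3) were analysed, with groups and replicate numbers taken from the labels. The authors sequenced fragmented RNA on an Illumina NovaSeq, quantified genes with RSEM and deposited TPM, 1 column per library. The submitters' processing notes name GRCh38.p13, and the aligner and annotation release are not given in the sources used here. All value columns were matched to a sample. RSEM divides reads that fit several genes, so overlapping genes are uncertain.

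The 10 genes and all gene lists were chosen with earlier results of these data known, and no gene set was tested. Names missing from the table were looked up by Ensembl identifier. The log2(TPM + 1) of the 14377 genes that reached 1 TPM in 3 or more libraries was compared between groups by limma 3.58.1 in R 4.3.3 (mean-variance trend, two-sided, Benjamini-Hochberg adjustment over all tested genes) with no further scaling. Fold changes on this scale understate those of weakly expressed genes. The count methods named in the paper were not used, as TPM hold no read numbers. The fit was tested on simulated data first. The simulated spread came from the libraries other than control replicate 3, so an outlying library of that kind was not part of this test. A DEG was a gene whose adjusted p was at most 0.05 and whose log2 fold change was beyond 1 in either direction. Differences between related genes were tested by exact permutation.

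Gene positions, lengths and GC content came from GENCODE release 29 (GRCh38) and promoters from RefSeq (GRCh38.p14). The ETS core was added to the motifs after the windows were seen. A planned comparison of the proteins was not run. The genes named were the 10 genes, genes of the lists with an adjusted p of at most 0.05, genes too low to test, CYP1B1, CYP1A1, cell markers and the 3 closest profiles to the genes with the largest rise and fall. Other genes of the lists, and overlapping genes, were added to these once their values were known. Alternatives covered the pseudocount, the filter on low TPM, centring, the trend, a replicate block, library weights, length and GC content, each library left out in turn, and other thresholds. Python 3.11.15 with pandas 2.3.3, scipy 1.17.1 and matplotlib 3.10.9 was used for tables and figures.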

Additional observations from a re-analysis of the deposited data

How the results depend on the processing

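DUSP6 and SPRY2 were up-regulated DEGs, and 0 of the 10 genes were down-regulated DEGs, in each of the 14 alternative fits. Leaving out each library in turn gave 2 to 3 up-regulated and 0 to 0 down-regulated genes, the third being DUSP4 without rutaecarpine replicate 2. The count of up-regulated genes was 4 on the adjusted p alone and 0 at an adjusted p of at most 0.001, since SPRY2 and DUSP6 had 0.0025 and 0.0029. The adjusted p stayed at or under 0.05 in 8 of 14 alternative fits for DUSP4 and in 6 of 14 for ETV5, and ranged up to 0.123 and 0.173. By limma, library weights brought the adjusted p of DUSP5, SPRY4 and ETV4 to 0.0335, 0.0386 and 0.00936, removing the length and GC trend brought DUSP5 and SPRY4 to 0.0347 and 0.0381, and ETV4 had 0.0478 without control replicate 3. With the replicate number as a block there were 2 up-regulated genes, and DUSP4 and ETV5 had adjusted p values of 0.0935 and 0.152 by limma. Deviations of same-numbered libraries correlated at 0.116, -0.266 and -0.215 over genes for replicates 1, 2 and 3. The highest correlation, 0.387, was between control replicate 3 and rutaecarpine replicate 2. With 3 libraries per group, this check cannot exclude that the numbers mark a shared culture or batch. Across the 14 fits the log2 fold change lay between 1.55 and 1.93 for DUSP6 and between 1.25 and 1.53 for SPRY2. Leaving out libraries moved SPRED2 between -0.0668, which is reversed, without control replicate 3 and 0.3183 without rutaecarpine replicate 2, where the cause was not tested. The response of SPRY1 relative to SPRY4 moved to -1.24 with a pseudocount of 0.1, which weighs most on weakly expressed genes such as these. With TPM alone the depth that limits SPRY1 and SPRY4 is unknown.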

Other observations

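Across the 6 libraries, the tested genes whose log2(TPM + 1) followed that of DUSP6 most closely were PNMA1 (Pearson's r = 0.99943), SCIRT (0.99896) and SPRY2 (0.9986). These are descriptions over 6 libraries that fall into 2 groups, and they share the low control replicate 3. PNMA1 rose with a log2 fold change of 0.52 (adjusted p = 0.015 from limma), and SCIRT had 0.48 (adjusted p = 0.120 from limma). For SPRY1, the gene of the 10 with the lowest log2 fold change, the closest were AKT2 (r = 0.99444), LINC00839 (0.99342) and BMP6 (0.9934), each with the lowest of all 6 values in rutaecarpine replicate 2, as SPRY1 has.

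AC024909.2, an RNA gene antisense to DUSP6, had 0.89, 1.11 and 0.44 TPM in the controls and 1.75, 1.70 and 2.13 TPM after rutaecarpine. Its log2 fold change was 0.67 (adjusted p = 0.0927 from limma). SPRY4-AS1 had 1.43, 1.01 and 0.73 TPM in the controls and 0.83, 2.02 and 2.08 TPM after rutaecarpine, and the groups overlapped. Its mean was also higher after rutaecarpine, at 1.64 against 1.06 TPM. ETV5-AS1 was too low to test, with means of 0.08 TPM in the controls and 0.21 TPM after rutaecarpine. Each thus had a higher mean, as its partner did. Whether the libraries keep the strand is not stated, so these reads cannot be assigned with certainty.

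CYP1A1, the classical AhR target, was at 0.00, 0.19 and 0.05 TPM in the controls and at 1.14, 1.18 and 1.12 TPM after rutaecarpine. It entered the test only through the treated libraries.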
